A study of Homo sapiens with 3 samples.

Results

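HDLM-2 is an established Hodgkin's lymphoma (HL) cell line, and the series holds 1 array of its RNA beside 1 array each of the HL cell lines L-540 and L-428. The genes described were chosen by their signal intensities, with HDLM-2 set against both other lines, so the folds and levels below describe the choice and are no test. The higher set holds the genes with a signal above 100 in HDLM-2, the expression threshold of the study, and at least 2-fold above the higher of the other lines. The lower set holds the genes at least 2-fold below the lower of the other lines where both of these exceed 100. Of 14232 genes measured, 45 were in the higher set (0.316%) and 74 in the lower set (0.520%). As shares of the genes that could pass, these were 9.04% of the 498 genes above 100 in HDLM-2 and 16.4% of the 451 genes above 100 in both other lines.

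Per the labels the lines had standard growth conditions, and total RNA was measured on the Affymetrix Human Exon 1.0 ST array. In the descriptions of the samples, the histone deacetylase inhibitor vorinostat stands with HDLM-2 and L-428 and not with L-540, whereas the methods of the study name no treatment for these arrays and the labels give no dose. Line and treatment cannot be told apart in these arrays. There are no replicate arrays, so no value has an error, no p-value is given, and a difference between lines could not be set against the spread within a line. Each RNA is a bulk extract, so fewer cells with a transcript and less transcript per cell cannot be told apart. Signals of different genes depend on their probes and are compared between lines only.

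HL is known for few tumor cells among many recruited immune cells. The tumor cells secrete chemokines and cytokines that attract T cells, carry activation receptors of lymphocytes, show active NF-kB and JAK-STAT signaling, and often carry the ligands of the inhibitory receptor PD-1. In JAK-STAT signaling, cytokine receptors activate STAT transcription factors through JAK kinases, and proteins of the SOCS family act as brakes. In NF-kB signaling, inhibitor proteins such as the product of NFKBIA hold the transcription factors in the cytoplasm. HDLM-2 and L-540 are regarded as derived from T cells and L-428 from B cells.

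The markers given for HDLM-2 were all in the higher set. CD274, which encodes the PD-1 ligand PD-L1, had a signal of 182 in HDLM-2 and 3.46 in both L-540 and L-428, a 52.8-fold difference. PDCD1LG2, which encodes the other ligand, PD-L2, had 518 in HDLM-2, 13.6 in L-540 and 17.5 in L-428, 29.6-fold above the nearer line. In both other lines these genes were far below the threshold of 100, so the size of these folds depends on low signals. With an offset of 50 added to each signal, the log2 difference of CD274 from the nearer line was 2.12, against 5.72 as deposited. That of PDCD1LG2 was 3.07, against 4.89.

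**Figure D1:**
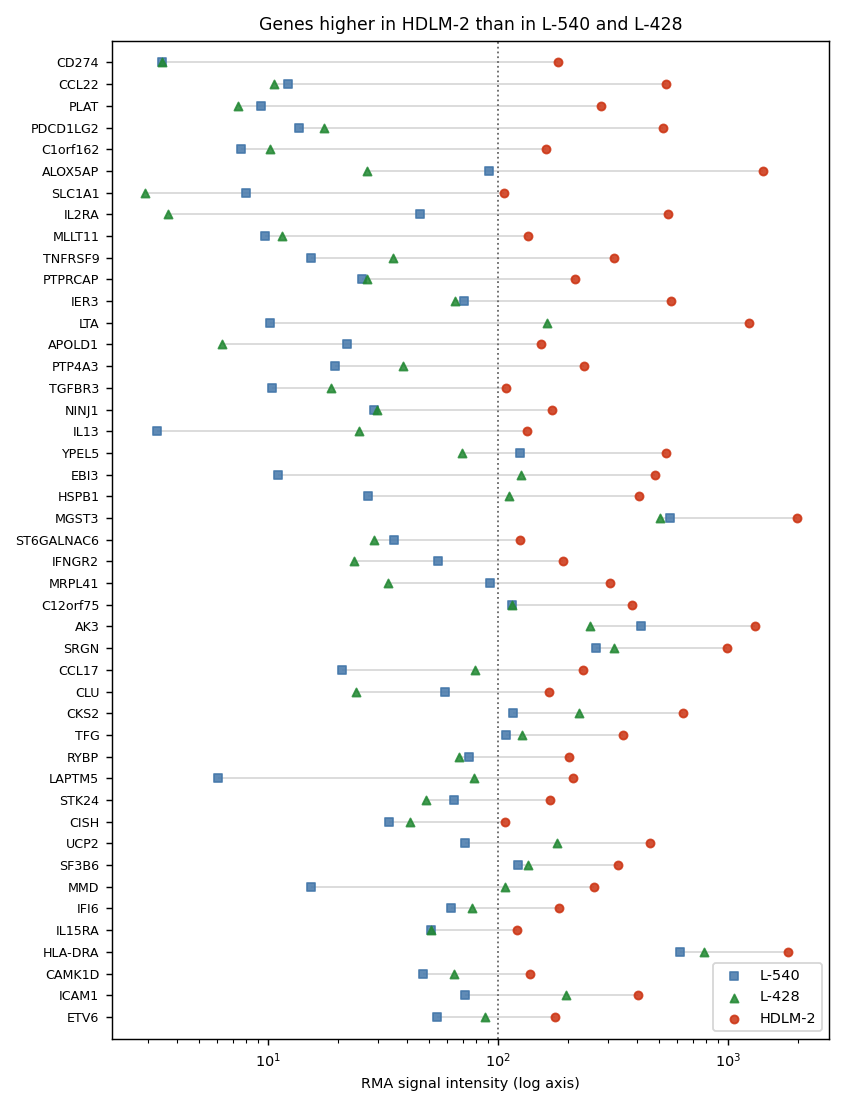
Signal intensities (log axis) of the 45 genes of the higher set in L-540 (squares), L-428 (triangles) and HDLM-2 (circles), 1 array per line, ordered by the fold over the nearer line, with the dotted line at 100. The fold runs from 52.8 for CD274 to 2.01 for ETV6, and both other lines are at or below 100 for 30 of the genes.

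The genes of both sets are ordered below by role, with the roles assigned after the genes were seen, so counts of a role carry no test. Over all genes 0.316% were in the higher set and 0.520% in the lower set. A count of 0 in a short list is near these shares and is no result about the list. A list with no gene above 100 in both other lines could have no member in the lower set. Among secreted proteins, 5 genes of cytokines and chemokines were in the higher set, with a median fold of 5.38. CCL22 had 535 in HDLM-2, 12.2 in L-540 and 10.6 in L-428, 43.7-fold above the nearer line. CCL17 had 233 in HDLM-2, 20.9 in L-540 and 79.3 in L-428, 2.94-fold above the nearer line. CCL22 and CCL17 are ligands of the receptor CCR4 and attract T helper and regulatory T cells. LTA, which encodes lymphotoxin alpha of the TNF family, had 1229.6 in HDLM-2, 10.2 in L-540 and 163 in L-428. IL13, a cytokine that HL cells can use as an autocrine growth factor, had 133 in HDLM-2, 3.30 in L-540 and 24.8 in L-428. EBI3, a subunit of the heterodimeric cytokines IL-27 and IL-35, had 478 in HDLM-2, 11.1 in L-540 and 126 in L-428. LTA, IL13, EBI3 and CCL17 thus had an intermediate signal in L-428 and the lowest in L-540, whereas CCL22 was near its low level in both.

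Among the other interleukins and growth factors, IL32 was in neither set, with 344 in HDLM-2, 137 in L-540 and 299 in L-428. IL6 had 74.1 in HDLM-2, 3.18 in L-540 and 27.3 in L-428. TNF had 93.2, 8.37 and 56.2 in the same order. IL6 and TNF, inflammatory cytokines, were thus below the threshold in every line as deposited. After quantile normalization of the arrays TNF had 124.6 in HDLM-2 and joined the higher set. Of 30 measured members of this list, 3 were in the higher set and 0 in the lower set. The median log2 difference of the list was 0 from L-540 and 0 from L-428, as it was over all genes. Of 26 chemokine genes measured, CCL22 and CCL17 alone were in the higher set. CCL1, a ligand of CCR8, was highest in L-428 with 263, and had 9.29 in L-540, 11.1 in HDLM-2. Of 14 chemokine receptors measured, 0 were in either set, near the shares of 0.316% and 0.520% over all genes. CCR7, the receptor that guides lymphocytes to lymph nodes, had 1348 in HDLM-2, 832 in L-540 and 398 in L-428, under 2-fold above the nearer line. CCR4 had 48.9 in HDLM-2, 1.30 in L-540 and 105 in L-428, so the line with the highest CCL22 and CCL17 had an intermediate signal of their receptor.

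Of the cytokine receptors and their brakes, 5 genes were in the higher set. IL2RA, the alpha chain that gives the interleukin 2 receptor its high affinity, had 545 in HDLM-2, 45.8 in L-540 and 3.66 in L-428, 11.9-fold above the nearer line. IL15RA, the matching chain for interleukin 15, had 120.4 in HDLM-2 and 50.9 in both other lines. The shared beta chain IL2RB did not follow them, with 300.03 in HDLM-2, 681 in L-540 and 105 in L-428. IFNGR2, a chain of the interferon gamma receptor, had 191 in HDLM-2, 54.7 in L-540 and 23.5 in L-428. TGFBR3, which encodes the TGF-beta coreceptor betaglycan, had 109 in HDLM-2, 10.4 in L-540 and 18.7 in L-428. CISH, a SOCS family brake on cytokine signaling, had 106 in HDLM-2, 33.6 in L-540 and 41.2 in L-428. Of the 25 receptor genes on the list of interleukin and growth factor receptors, IL2RA and IL15RA were in the higher set, and 0 were in the lower set.

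CISH was the 1 member in the higher set among 23 measured genes of the JAK-STAT list. The list had a median log2 difference of 0 from both lines as deposited, as over all genes. After quantile normalization the medians of the list were 0.149 from L-540 and 0.545 from L-428, against 0.027 and 0.24 over all genes. STAT3 had 468 in HDLM-2 and L-540 and 547 in L-428, and SOCS1, another brake, had 113 in HDLM-2 and L-540 and 86.7 in L-428. PIM1 and PIM2, kinases induced by STAT factors, had 159.9 and 249 in HDLM-2, both below L-540 with 187 and 335 and above L-428 with 50.05 and 53.4. For PIM1 and PIM2 HDLM-2 thus lay between the other lines. Its deposited values of STAT3 and SOCS1 were identical to those of L-540, which is not taken for equal expression.

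Another 7 genes of the higher set encode surface receptors, ligands and membrane proteins of immune cells, CD274 and PDCD1LG2 among them. TNFRSF9, the costimulatory receptor 4-1BB, had 318 in HDLM-2, 15.3 in L-540 and 34.7 in L-428, 9.18-fold above the nearer line. TNFRSF8, which encodes CD30, the defining surface marker of HL cells, was 158 in HDLM-2 and L-540 and 145 in L-428. It was thus above 100 in every line. The identical values of HDLM-2 and L-540 are not taken for equal expression. Of 19 measured genes of the TNF receptor family, TNFRSF9 was the 1 member in the higher set and 0 were in the lower set. PTPRCAP, a partner of the phosphatase CD45, had 215 in HDLM-2, 25.7 in L-540 and 26.8 in L-428. LAPTM5, a lysosomal protein of blood cells, had 212 in HDLM-2, 6.02 in L-540 and 78.6 in L-428. ICAM1, an adhesion ligand of leukocyte integrins, had 405 in HDLM-2, 71.7 in L-540 and 198 in L-428, just past the fold limit at 2.05-fold. Of 24 measured adhesion receptors and ligands, ICAM1 was the 1 gene in the higher set as deposited, and with ICAM3 and CD44 there were 3 after quantile normalization. SELPLG, a ligand of selectins, had 208 in HDLM-2, 1031 in L-540 and 18.1 in L-428.

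HLA-DRA, the constant chain of an MHC class II molecule, had 1815 in HDLM-2, 615 in L-540 and 785 in L-428. It was the 1 member in the higher set among 22 measured antigen presentation genes. In this list, 9 genes were above 100 in HDLM-2. TAP1, the peptide transporter subunit, had 193 in HDLM-2, 120.2 in L-540 and 119 in L-428. TAPBP, which encodes tapasin, had 581 in HDLM-2 and 355 in both other lines. HLA-DPB1 had 1003 in HDLM-2, 443 in L-540 and 1829 in L-428. HLA-E had 103, 200.1 and 49.1 in the same order, so HDLM-2 was not the highest line for HLA-DPB1 and HLA-E. HLA-DPA1 had 2790 in HDLM-2, 1126 in L-540 and 2149 in L-428. CD74 had 2026, 1688 and 728 in the same order. HDLM-2 was thus the highest line for HLA-DPA1 and CD74, by less than 2-fold over the nearer line. Of the 22 genes, 7 were above both other lines in HDLM-2 and 1 was below both, where all genes had 12.4% above and 18.8% below. HLA-DRA is among the 7 and was already in the higher set by the same signals. HLA genes resemble each other, and a probe can bind several of them, so their signals are less certain. The median log2 difference of the list was 0.35 from L-540 and 0 from L-428, against 0 over all genes in both comparisons. After quantile normalization the medians of the list were 0.38 and 0.46, against 0.027 and 0.24 over all genes.

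Of 17 checkpoint and costimulatory ligands measured, CD274 and PDCD1LG2 were in the higher set and 0 were in the lower set. No gene of this list was above 100 in both other lines, so the lower set was closed to it. CD80, a ligand of CD28 and CTLA-4, had 92.7 in HDLM-2, 3.65 in L-540 and 55.2 in L-428. It joined the higher set after quantile normalization, with 124 in HDLM-2. CD86, the other B7 ligand of CD28, had 67.5 in HDLM-2 and L-428 and 94.7 in L-540. CD58, the ligand of the T cell receptor CD2, had 39.6 in HDLM-2, 62.05 in L-540 and 279 in L-428. CD200, which binds an inhibitory receptor of myeloid cells, had 3.24, 28.1 and 116 in the same order. Of the 17 genes, 5 were above both other lines in HDLM-2, the PD-1 ligands and CD80 among them. The PD-1 ligands were already in the higher set by the same signals, so this count is a description and no test. Below both were 3, CD58 and CD200 among them. The shares over all genes were 12.4% above both and 18.8% below both, and 3 of 17 is near the latter.

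To show what lies before the genes that carry these differences, the bases before the start of transcription were taken from RefSeq for GRCh38.p14. CD274, TNFRSF9, CISH and IL2RA are shown because they hold the searched letters and are a ligand, receptors and a brake of the pathways named above. Capitals mark matches to TTCNNNGAA (letters of STAT sites), GGGA and CC with 4 bases of any kind between them (letters of NF-kB sites) or TGANTCA (letters of AP-1 sites), where N is any base, on either strand. The runs are 250 bases long and end at the base before the start. They lie at chr9:5450292-5450541 on the plus strand for CD274, at chr1:7940840-7941089 on the minus strand for TNFRSF9, at chr3:50611775-50612024 on the minus strand for CISH and at chr10:6062368-6062617 on the minus strand for IL2RA.
CD274: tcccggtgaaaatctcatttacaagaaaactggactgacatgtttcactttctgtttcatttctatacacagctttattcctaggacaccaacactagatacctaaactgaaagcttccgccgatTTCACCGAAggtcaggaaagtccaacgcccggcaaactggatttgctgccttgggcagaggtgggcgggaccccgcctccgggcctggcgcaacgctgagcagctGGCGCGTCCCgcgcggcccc
TNFRSF9: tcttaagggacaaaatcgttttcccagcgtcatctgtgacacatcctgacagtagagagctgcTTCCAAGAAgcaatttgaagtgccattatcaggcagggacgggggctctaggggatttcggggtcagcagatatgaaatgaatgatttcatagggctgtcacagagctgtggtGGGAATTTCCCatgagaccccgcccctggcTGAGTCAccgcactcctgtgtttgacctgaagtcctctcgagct
CISH: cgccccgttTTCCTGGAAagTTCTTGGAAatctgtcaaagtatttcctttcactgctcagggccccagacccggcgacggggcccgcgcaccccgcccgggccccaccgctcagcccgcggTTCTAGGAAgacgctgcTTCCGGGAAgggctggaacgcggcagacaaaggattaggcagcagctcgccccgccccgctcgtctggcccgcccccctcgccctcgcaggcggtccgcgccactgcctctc
IL2RA: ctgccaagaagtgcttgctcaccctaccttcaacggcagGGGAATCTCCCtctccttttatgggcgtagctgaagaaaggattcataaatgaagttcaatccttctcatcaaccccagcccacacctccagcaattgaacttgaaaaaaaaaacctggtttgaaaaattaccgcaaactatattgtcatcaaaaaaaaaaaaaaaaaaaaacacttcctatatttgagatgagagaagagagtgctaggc
CD274 held 1 STAT and 1 NF-kB match, TNFRSF9 1 STAT match, 2 overlapping NF-kB matches and 1 AP-1 match, CISH 4 STAT matches and IL2RA 2 overlapping NF-kB matches. RefSeq gave 47 promoters for 35 of the 45 genes. The STAT letters were in 10 of these 47 (21.3%), against 6.57% of all 35116 promoters. The NF-kB letters were in 17 (36.2%) against 22.6%, and the AP-1 letters in 6 (12.8%) against 6.57%. For the lower set, 64 genes had 101 promoters, of which 3 held the STAT letters (2.97%), 30 the NF-kB letters (29.7%) and 8 the AP-1 letters (7.92%). Several promoters of 1 gene are not independent, and a match is a description of letters, not of a bound site.

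Among the enzymes, transporters and mitochondrial proteins of the higher set, which numbered 8, PLAT and ALOX5AP had the largest folds. PLAT, the tissue plasminogen activator that cleaves plasminogen to plasmin, had 279 in HDLM-2, 9.29 in L-540 and 7.38 in L-428, 30.1-fold above the nearer line. Of 21 measured genes of the plasminogen system and matrix proteases, PLAT was the 1 gene in the higher set. S100A10, part of a plasminogen receptor, had 1177 in HDLM-2, 1900.05 in L-540 and 857 in L-428. TIMP1, an inhibitor of matrix proteases, had 985 in HDLM-2, 851 in L-540 and 127 in L-428, so HDLM-2 and L-540 were alike in being far above L-428. ALOX5AP, the protein that presents arachidonic acid to 5-lipoxygenase for leukotriene synthesis, had 1417 in HDLM-2, 90.7 in L-540 and 27.0 in L-428. Of 19 measured genes of the leukotriene and prostaglandin pathway, ALOX5AP was the 1 gene in the higher set. PTGER4, a prostaglandin E receptor, had 301 in HDLM-2, 10.7 in L-540 and 206 in L-428. It was in the higher set only after quantile normalization. MGST3, a membrane-bound glutathione transferase, had 1983 in HDLM-2, 559 in L-540 and 506 in L-428.

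SLC1A1, a glutamate transporter, had 106 in HDLM-2, 8.03 in L-540 and 2.90 in L-428. AK3, a mitochondrial adenylate kinase, had 1299.5 in HDLM-2, 416 in L-540 and 249 in L-428. MRPL41, a mitochondrial ribosomal protein, had 307 in HDLM-2, 92.1 in L-540 and 33.04 in L-428. UCP2, an uncoupling protein of mitochondria, had 455 in HDLM-2, 71.3 in L-540 and 179.5 in L-428. ST6GALNAC6, a sialyltransferase, had 124, 35.1 and 28.7 in the same order. SLC1A1, AK3, MRPL41 and ST6GALNAC6 share chromosome 9 with the PD-1 ligands.

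Genes of signaling, chromatin and cell cycle numbered 7. IER3, an early response gene and NF-kB target, had 562 in HDLM-2, 70.9 in L-540 and 65.1 in L-428, the highest fold of this group at 7.93. PTP4A3, a phosphatase, had 235 in HDLM-2, 19.6 in L-540 and 38.3 in L-428. CKS2, a subunit of cyclin-dependent kinases, had 633 in HDLM-2, 116 in L-540 and 225 in L-428. The kinases STK24 and CAMK1D, the repressor ETV6 and the Polycomb partner RYBP had smaller folds, from 2.01 for ETV6 to 2.71 for RYBP.

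The other 13 genes of the higher set had signals in HDLM-2 between 135 and 988. C1orf162, a small membrane protein, had 161 in HDLM-2, 7.62 in L-540 and 10.2 in L-428, 15.8-fold above the nearer line. MLLT11, first found as a fusion partner in leukemia, had 135 in HDLM-2, 9.70 in L-540 and 11.4 in L-428. APOLD1 and NINJ1 followed with folds of 7.01 and 5.80. YPEL5, HSPB1 (a small heat shock protein), C12orf75, SRGN (the proteoglycan core of secretory granules), CLU (clusterin), TFG, SF3B6 (a splicing factor subunit), MMD and IFI6 (an interferon-induced protein) had folds from 2.40 for IFI6 to 4.30 for YPEL5. IFI6 was the 1 member in the higher set among 33 measured interferon response genes. XAF1, another such gene, had 21.5 in HDLM-2, 55.7 in L-540 and 171 in L-428, so the list had members that were highest and members that were lowest in HDLM-2. CLU was the 1 member in the higher set among 13 measured genes raised by histone deacetylase inhibitors, whereas CITED2 of that list had 225 in HDLM-2, 471 in L-540 and 364 in L-428. The median log2 difference of that list was 0 from both lines, as over all genes.

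Over the higher set the median fold over the nearer line was 3.54. The fold was 8 or more for 11 genes, from 4 to below 8 for 8 genes and from 2 to below 4 for 26 genes. The nearer line was L-428 for 26 genes and L-540 for 16, while the signals of the other lines were identical for 3, CD274, C12orf75 and IL15RA. Both other lines exceeded 100 for 8 genes, 1 of them did for 7, and neither did for 30. The higher set is thus mostly made of genes under the threshold in the other lines.

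Position was not used to choose the genes. By the chromosome given in RefSeq, 8 of the 45 genes of the higher set are on chromosome 9, where 528 genes were measured (3.72% of those measured). These 8 are 29.6% of the 27 genes of chromosome 9 above 100 in HDLM-2, against 9.04% over all chromosomes. They are CD274, PDCD1LG2, SLC1A1, AK3, NINJ1, ST6GALNAC6, MRPL41 and CKS2. On chromosome 9, 0 genes were in the lower set, of 12 above 100 in both other lines. Chromosome 10 had 4 genes of the higher set, IL2RA, IL15RA, SRGN and CAMK1D, of 16 above 100 in HDLM-2 (25%). Chromosome 13 had 2 of 6 (33.3%), so the share of chromosome 9 was not the largest. Chromosome 9 was singled out after the counts were seen.

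**Figure D2:**
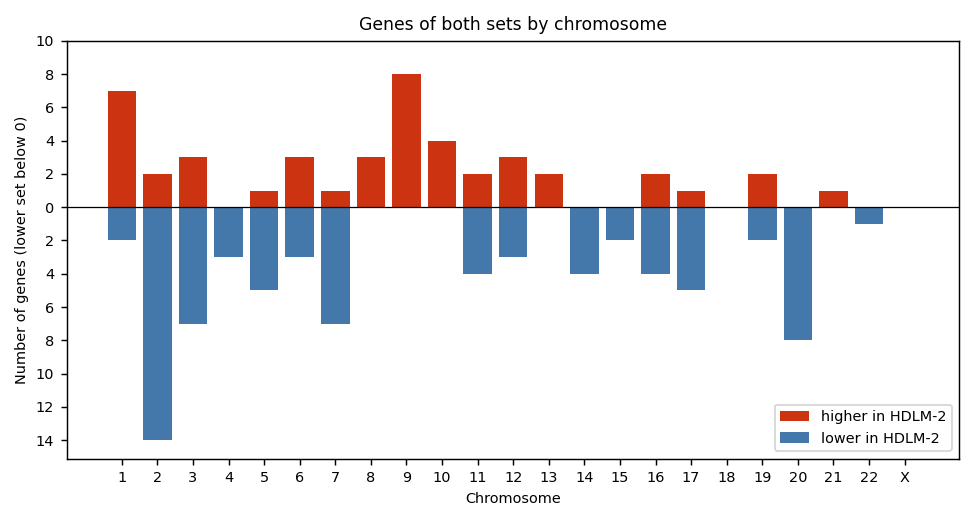
Number of genes of the higher set (above 0) and of the lower set (below 0) on each chromosome, from the RefSeq annotation. Chromosome 9 holds 8 genes of the higher set and 0 of the lower set, chromosome 2 holds 14 of the lower set and chromosome 20 holds 8 of the lower set and 0 of the higher set, all as deposited. After quantile normalization the lower set has 8 genes on chromosome 2 and 5 on chromosome 20.

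In gene order, CD274 and PDCD1LG2 are next to each other, IL15RA and IL2RA are next to each other among the measured genes, and CCL22 and CCL17 have 1 measured gene between them. Of the 20 measured genes within 10 places of CD274, 10 were above both other lines in HDLM-2 and 1 was below both. The other 9 lay between them or were equal to 1 or both. Most of these 9 had the same value in all lines, which is not taken for equal expression. Over all genes, 12.4% were above both other lines and 18.8% below both. PDCD1LG2, AK3 and SLC1A1 are among these 10 and were already in the higher set by the same signals. The genes were taken around CD274, which has the largest fold of that set, so the count is a description and no test. RIC1, a guanine nucleotide exchange factor subunit beyond PDCD1LG2, had 62.2 in HDLM-2, 21.3 in L-540 and 31.7 in L-428. RCL1, which acts in ribosomal RNA processing, had 62.1 in HDLM-2, 22.8 in L-540 and 48.1 in L-428. CDC37L1 had 15.6, 4.52 and 7.55 in the same order. PLPP6 had 15.5 in HDLM-2, 7.93 in L-540 and 8.03 in L-428. JAK2, the kinase of this neighborhood, had 19.8 in HDLM-2 and L-428 and 9.80 in L-540. Apart from SLC1A1, AK3, CD274 and PDCD1LG2, the genes above both other lines were all below 100, and some, such as INSL6 with 1.06, were near the lowest signals of the array. The arrays measured no DNA, and the copy number of the region was not tested.

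**Figure D3:**
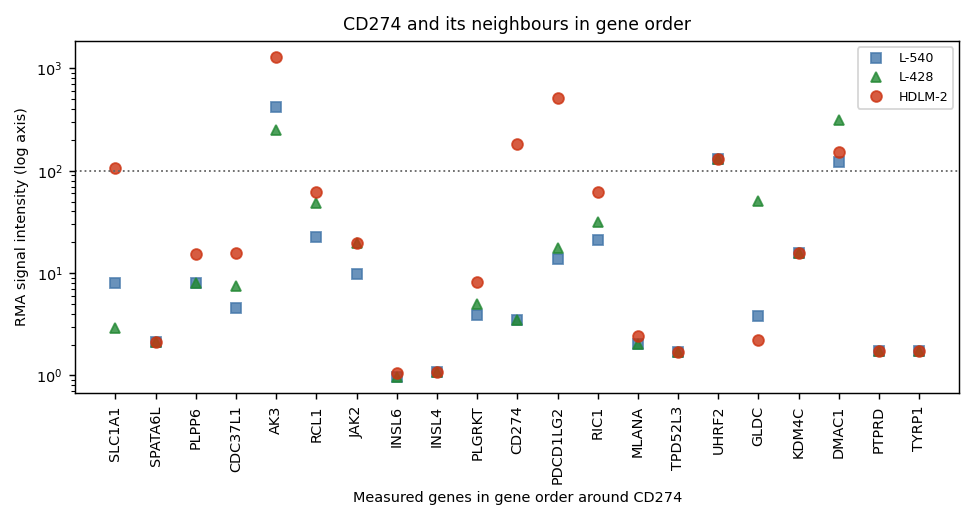
Signal intensities (log axis) of CD274 and the 10 measured genes on each side of it in gene order, in L-540 (squares), L-428 (triangles) and HDLM-2 (circles), with the dotted line at 100. HDLM-2 is above both other lines at CD274, PDCD1LG2, AK3 and SLC1A1 and equal to the others at UHRF2, KDM4C and PTPRD.

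The lower set had 74 genes, with a median fold of 3.13 below the nearer line. The fold was 8 or more for 3 genes, from 4 to below 8 for 15 and from 2 to below 4 for 56. HDLM-2 itself was at or below 100 for 63 of them and above 100 for 11. L-428 was the highest line for 52 genes and L-540 for 18, and the signals of these lines were identical for 4. The array of L-428 had more genes above 100 than the others, 957 where L-540 had 569 and HDLM-2 had 498.

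**Figure D4:**
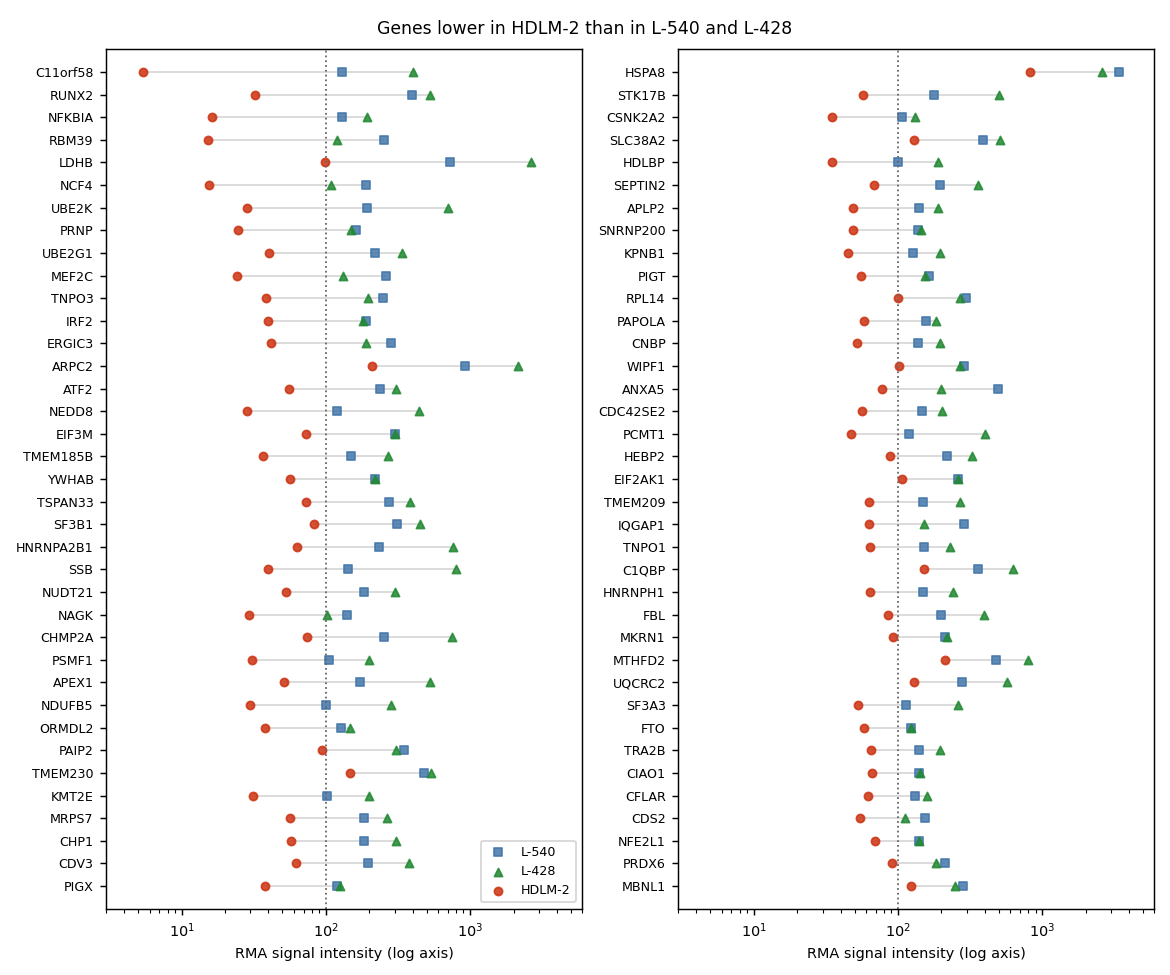
Signal intensities (log axis) of the 74 genes of the lower set in L-540 (squares), L-428 (triangles) and HDLM-2 (circles), in 2 panels ordered by the fold below the nearer line, with the dotted line at 100. The fold runs from 23.9 for C11orf58 to 2.004 for MBNL1, and HDLM-2 is at or below 100 for 63 genes.

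The gene with the largest fold was C11orf58, which encodes a small acidic protein, with 5.42 in HDLM-2, 129 in L-540 and 403 in L-428, 23.9-fold below the nearer line. Among 5 transcription factor genes, RUNX2, known for bone formation and also active in lymphoid cells, had 32.1 in HDLM-2, 398 in L-540 and 528 in L-428. MEF2C, a factor of B cells and muscle, had 24.4 in HDLM-2, 260.4 in L-540 and 132 in L-428. IRF2, a repressor of interferon-induced genes, had 39.5 in HDLM-2, 191 in L-540 and 179.7 in L-428. ATF2 and NFE2L1 were the others, with folds of 4.31 and 2.03. After quantile normalization 3 of the 5 stayed in the set, and MEF2C left it, with 97.3 in L-428. RUNX2 and IRF2 were thus less than 2-fold apart in L-540 and L-428 and far below both in HDLM-2.

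Genes of signaling and survival numbered 8 in the lower set. NFKBIA, which encodes the inhibitor I-kappa-B alpha, had 16.1 in HDLM-2, 129.7 in L-540 and 194 in L-428, 8.04-fold below the nearer line. CFLAR, which encodes the caspase 8 inhibitor FLIP, had 62.0 in HDLM-2, 132 in L-540 and 159 in L-428. NCF4, a subunit of the phagocyte oxidase, had 15.4 in HDLM-2, 191 in L-540 and 108 in L-428. After quantile normalization 4 of the 8 stayed in the set, and NCF4 left it, with 79.7 in L-428. Of 21 measured genes of cell cycle brakes and apoptosis, CFLAR was the 1 gene in the lower set, 0 were in the higher set, and 0 were above 100 in HDLM-2. CFLAR left the set after quantile normalization, so this list then had 0 genes in it. YWHAB, STK17B, CSNK2A2, CHP1 and ANXA5 had folds from 2.60 for ANXA5 to 3.93 for YWHAB. In the list of NF-kB factors, inhibitors and targets, 17 genes were measured, of which IER3 and ICAM1 were in the higher set and NFKBIA and CFLAR in the lower set. TNFAIP3, which encodes the NF-kB inhibitor A20, had 95.2 in HDLM-2, 72.1 in L-540 and 561 in L-428. RELA had 106 in HDLM-2 and 123 in both other lines. The median log2 difference of this list was 0.40 from L-540 and -0.21 from L-428, against 0 over all genes, and the sign against L-428 turned with the scaling. After quantile normalization these medians were 0.64 and 0.60, against 0.027 and 0.24 over all genes, and with the arrays set to one median the difference from L-428 was 0.15.

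Genes of RNA processing numbered 12 in the lower set, with HDLM-2 signals between 15.3 and 124, and 5 of them stayed in the set after quantile normalization. RBM39, a splicing factor, had 15.3 in HDLM-2, 253 in L-540 and 119.6 in L-428, 7.82-fold below the nearer line. It was not among those that stayed, with 88.1 in L-428 after quantile normalization. SF3B1, a core splicing factor, had 83.1 in HDLM-2, 313 in L-540 and 446 in L-428. HNRNPA2B1, an RNA-binding protein, had 63.0 in HDLM-2, 232 in L-540 and 759.9 in L-428. SSB (the La protein), NUDT21, SNRNP200, PAPOLA (poly(A) polymerase), HNRNPH1, SF3A3, TRA2B, MBNL1 and FBL (fibrillarin) had folds from 2.004 for MBNL1 to 3.59 for SSB. SF3B6, a partner of SF3B1, was in the higher set with 332 in HDLM-2, 122 in L-540 and 134 in L-428, so the subunits of this complex did not share a direction.

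Of the ubiquitin and proteasome genes, 5 were in the lower set. The ubiquitin-conjugating enzymes UBE2K and UBE2G1 had 28.3 and 40.2 in HDLM-2, with folds of 6.84 and 5.44. NEDD8, a ubiquitin-like protein, had 28.4 in HDLM-2, 119.9 in L-540 and 445 in L-428. PSMF1, an inhibitor of the proteasome, and MKRN1 had folds of 3.43 and 2.27. The nuclear import receptors TNPO3, KPNB1 and TNPO1 had folds of 5.09, 2.81 and 2.37.

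Mitochondrial proteins and lactate metabolism had 6 genes in the lower set, of which 3 stayed after quantile normalization. LDHB, the lactate dehydrogenase subunit that prevails in the heart, had 98.1 in HDLM-2, 721 in L-540 and 2660.5 in L-428, 7.35-fold below the nearer line. LDHA, the other main subunit, had 1920.0 in HDLM-2, 2873 in L-540 and 2877 in L-428. It was in neither set. Both subunits were thus lowest in HDLM-2, LDHA by less than 2-fold. MTHFD2, an enzyme of mitochondrial one-carbon metabolism, had 210.4 in HDLM-2, 476 in L-540 and 793 in L-428. NDUFB5 and UQCRC2 of the respiratory chain, C1QBP and MRPS7 had folds from 2.16 for UQCRC2 to 3.35 for NDUFB5. Of 24 measured genes of glycolysis and hypoxia response, 0 were in either set, near the shares of 0.316% and 0.520% over all genes. PKM of that list had 435 in HDLM-2, 692 in L-540 and 730.2 in L-428.

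ARPC2, a subunit of the complex that branches actin filaments, had 209.6 in HDLM-2, 927 in L-540 and 2145 in L-428. With WIPF1, CDC42SE2 and IQGAP1 it made up 4 genes of actin and cell shape, of which 2 stayed after quantile normalization. Of 4 translation genes, EIF3M, an initiation factor subunit, had 72.6 in HDLM-2, 300.2 in L-540 and 304 in L-428. PAIP2, RPL14 and EIF2AK1 had smaller folds, and 1 of the 4 stayed after quantile normalization. Membrane, secretory and vesicle proteins numbered 12, with PRNP (the prion protein) at 24.6 in HDLM-2, 162 in L-540 and 151 in L-428. The others were ERGIC3, TMEM185B, TSPAN33, CHMP2A, ORMDL2, TMEM230, PIGX, PIGT, CDS2, SLC38A2 and APLP2, with folds from 2.05 for CDS2 to 4.53 for ERGIC3.

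Beside C11orf58, the remaining genes of the lower set included HSPA8, the constitutive heat shock cognate protein, with 829.5 in HDLM-2, 3387 in L-540 and 2587 in L-428. Further members were NAGK, APEX1 (a DNA repair nuclease), KMT2E, CDV3, HDLBP, SEPTIN2, CNBP, PCMT1, HEBP2, TMEM209, FTO, CIAO1 and PRDX6 (a peroxiredoxin), with folds from 2.01 for PRDX6 to 3.44 for NAGK. HSPA8 and ARPC2 show that the lower set also holds genes that stayed well above the threshold in HDLM-2.

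On chromosome 2, 14 of 38 genes above 100 in both other lines were in the lower set (36.8%), and on chromosome 20, 8 of 12 (66.7%), against 16.4% over all chromosomes. After quantile normalization the counts were 8 on chromosome 2 and 5 on chromosome 20. The 8 on chromosome 20 as deposited were RBM39, PRNP, ERGIC3, YWHAB, PSMF1, TMEM230, PIGT and CDS2. Where any line exceeded 100, the median log2 difference of chromosome 20 was -1.18 from L-540 and -1.89 from L-428, against -0.081 and -1.002 over all chromosomes. The genes of the lower set are part of these medians, which are thus no separate support. Chromosome 4 had -0.69 and -2.19, with 3 of 9 genes in the lower set (33.3%), and chromosome 2 had -0.46 and -1.80. On chromosome 9 these medians were 0.15 and -0.028. Neighbors in gene order within the lower set were HDLBP and SEPTIN2, CIAO1 and SNRNP200, and TMEM230 and CDS2. The chromosomes were singled out after their counts were seen, and DNA content was not measured.

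Both scalings of the arrays gave the same direction for all 119 genes. After quantile normalization of the 3 arrays, which sets them to a common distribution, the higher set had 74 genes (0.520% of those measured) and the lower set 51 (0.358%). The share of the higher set among all genes of both sets was 37.8% as deposited and 59.2% after it. All 45 genes of the higher set stayed in it, and 29 joined, while 45 of the 74 genes of the lower set stayed, 29 left, and 6 joined. This scaling moved the median log2 difference of all genes to 0.027 from L-540 and 0.24 from L-428. Among the genes that joined the higher set, CTSH (cathepsin H) had a deposited signal of 89.98 in HDLM-2, 2.68 in L-540 and 4.65 in L-428. SIT1, an adaptor that inhibits T cell receptor signaling, had 97.1, 4.51 and 3.20, and CD44, an adhesion receptor for hyaluronan, had 95.4, 5.40 and 13.6 in the same order. These genes were kept out as deposited by the threshold of 100 and not by the fold. SUZ12, a Polycomb subunit that joined the lower set, had 13.9 in HDLM-2, 90.7 in L-540 and 218 in L-428.

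**Figure D5:**
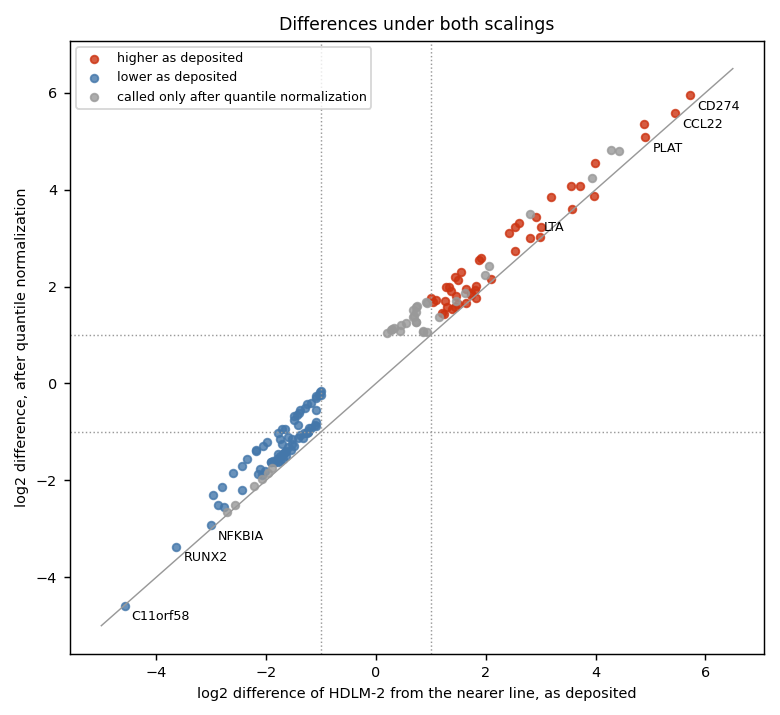
Log2 difference of HDLM-2 from the nearer line as deposited (horizontal axis) and after quantile normalization (vertical axis), for the 45 genes of the higher set (red), the 74 of the lower set (blue) and the 35 genes called only after it (grey), with dotted lines at a 2-fold difference. All points lie above or near the diagonal, the higher set stays beyond the fold limit, and MBNL1 and PRDX6 are among the lower genes that move inside it.

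The values next to the limits show how the sets end. ETV6 with a fold of 2.01 and ICAM1 with 2.05 were just inside the higher set, and SDHA with 1.91 and IGSF3 with 1.90 just outside. SLC1A1 with 106 was just above the threshold, and SIT1 with 97.1 was just below it. In the lower set MBNL1 and PRDX6 had folds of 2.004 and 2.01, and TMBIM1 with 1.99 was just outside.

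Of the defining markers of HL cells, IRF4 had 598 in all 3 lines, where equal values are not taken for equal expression, and FSCN1 (fascin) had 697 in HDLM-2, 217 in L-540 and 2075 in L-428. FUT4, which makes the CD15 antigen, was below 100 with 24.4 in HDLM-2 and L-540 and 21.3 in L-428. TRAF1 had 31.5 in HDLM-2, 18.6 in L-540 and 116 in L-428, so 2 of these HL markers were below the threshold in HDLM-2. Markers of other cell types were mostly at low signals. Of 26 measured T cell genes, 0 were above 100 in HDLM-2, and the highest was CD247, the zeta chain of the T cell receptor complex, with 80.5 where L-540 had 93.7 and L-428 had 12.2. CD3D and CD3G had 1.48 and 2.33 in all lines. The summed signal of the T cell list was 296 in HDLM-2, 265 in L-540 and 284 in L-428.

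Of 26 measured B cell genes, LYN, a kinase shared with myeloid cells, was the 1 gene above 100 in HDLM-2, with 102 against 71.4 in both other lines, and PAX5, the defining factor of B cells, had 8.03 in all lines. Their summed signal was 395 in HDLM-2, 292 in L-540 and 324 in L-428. PRF1, which encodes the cytotoxic granule protein perforin, had 113 in HDLM-2, 103 in L-540 and 8.34 in L-428, while NKG7, another granule gene, had 14.5, 168 and 15.8 in the same order. Of 24 myeloid and dendritic cell genes, 0 were above 100 in any line, with a summed signal of 204 in HDLM-2, 172 in L-540 and 160.3 in L-428. Of 14 epithelial, stromal and endothelial markers, KRT8 was the 1 gene above 100, with 419 in HDLM-2, 615 in L-540 and 295 in L-428. Of 19 cytotoxic and NK cell genes, 10 plasma cell genes and 5 mast cell and basophil genes measured, the numbers above 100 in HDLM-2 were 1, 2 and 0. None of the members of these lists of other cell types was in the higher or lower set. For most lists this was fixed by the limits. The T cell, B cell, cytotoxic, myeloid and mast cell lists had no member above 100 in both other lines, as the lower set requires. The T cell, myeloid and mast cell lists had no member above 100 in HDLM-2, as the higher set requires. The part of these cell types in the results was not tested.

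Of 28 measured proliferation genes, 0 were in either set, and 9 were below both other lines in HDLM-2, where 18.8% of all genes were. The highest signal of the list in L-540 was 96.3, so no member could be in the lower set. Only 2 members were above 100 in HDLM-2 and could pass into the higher set. CCNA2, which encodes cyclin A2, had 32.9 in HDLM-2, 73.8 in L-540 and 316 in L-428. PLK1, a mitotic kinase, had 119, 52.4 and 257 in the same order. The median log2 difference of the list was 0.011 from L-540 and -1.44 from L-428, and from L-428 it was -0.80 after quantile normalization and -0.77 with an offset of 50. Over all genes above 100 in any line, the median from L-428 was -1.002 as deposited and -0.24 after quantile normalization. Of 10 measured housekeeping genes, 0 were in either set as deposited and 1, SDHA, was in the higher set after quantile normalization, and ACTB had 3439.9 in HDLM-2, 2881 in L-540 and 3022 in L-428.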

How the data were processed

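The intensities were deposited by the authors on the linear scale, 1 value for each of 22011 transcript clusters and line. Per the submitters' processing notes they were made with RMA in Affymetrix Expression Console with the build hg18. This method subtracts background, brings the arrays of a run to 1 distribution and combines the probes of a cluster. Per the methods of the study, its arrays of HL lines, normal blood cells, P493-6 cells and B cells went through RMA in a single run. The sources do not say whether the deposited values are from it. Of the genes, 5659 had the same signal in all 3 lines.

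The 14432 clusters paired with 1 gene were used, the cluster with the highest mean standing for each of 197 genes with several, which gave 14232 genes. Current symbols came from RefSeq for GRCh38.p14 by Entrez identifier (14404 matched), from which names, chromosomes and gene order were used. The 25 gene lists hold 608 symbols, of which 494 were measured. Members and lists were chosen with earlier results of these data known. The rule for named genes took the markers, list members in either set or above 100 in HDLM-2, the 30 members of each set with the largest difference, the 10 with the largest after quantile normalization and the 10 genes on each side of CD274. The other members, genes next to the limits such as TMBIM1, list members at or below 100 in HDLM-2 and other genes that quantile normalization adds were named after their values were seen. Genes of chromosome Y and XIST are not named, and 0 of them were in either set. With 1 array per line no test was made, and the number of arrays limits the precision. The code was checked on simulated data with little noise and known changes well past the limits. Such data do not check the calls near the limits or with shifts between arrays. Alternatives were other thresholds, folds, scalings, an offset, other choices of cluster and each other line alone. The software was matplotlib 3.10.9, pandas 2.3.3, numpy 2.4.6 and Python 3.11.15.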

Additional observations from a re-analysis of the deposited data

How the results depend on the processing

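The size of the sets depended on the limits. The higher set, with 45 genes, had 74 with quantile normalization, 28 at a threshold of 200, 71 at a fold of 1.5, 19 at a fold of 4 and 186 with no filter on the value. The lower set, with 74 genes, had 186 at a threshold of 50, 25 at 200, 134 at a fold of 1.5, 18 at a fold of 4, 40 with an offset of 50 and 474 with no filter. Against 1 other line alone, the higher set had 99 to 107 genes and the lower set 143 to 553, the latter without L-540, when L-428 is the single reference. Fewer limits admit more genes by construction. The other alternatives kept both counts within 1.5 times. None of the 119 genes turned its direction. Of the 45 differences, 45 stayed at 2-fold or more with quantile normalization, 45 with one median and 36 with the offset, and of the 74, 50, 64 and 40 did. Relative to all genes, 35 of 50 list medians moved by at most 0.1 with quantile normalization, 50 with one median and 46 with the offset. No paired analysis was possible because a line has a single array.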

Other observations

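Clusters with no gene in the platform annotation were left out of both sets. By the same limits, 24 of them were higher in HDLM-2, 3.07% of the 783 above 100 in HDLM-2, and 154 were lower, 18.9% of the 816 above 100 in both other lines. With quantile normalization these counts were 45 and 112. Among the clusters shared by several genes, which cannot be given to 1 of them, 7 were higher and 10 lower as deposited.

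Different genes had identical signals on the HDLM-2 array, which held 6916 distinct values over the 14232 genes. Of the 119 genes of both sets, 9 shared their HDLM-2 value with another gene, such as CISH, whose 106 was also the value of others, 3 genes in all.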
